A study of Mus musculus with 8 samples.

Results

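The small leucine-rich proteoglycans followed here are the 8 genes Ogn, Dcn, Lum, Fmod, Bgn, Aspn, Omd and Kera, measured on every probe set annotated with that symbol alone: 18 of the 45101 probe sets of the array and 8 of its 18194 genes with a probe set of 1 symbol. The family was chosen by its measured signals among other things: the log2 signals of Ogn and Dcn at E11.5 and E10.5 were known when it was proposed, so differences between these stages are given as a description, nothing is read from the count of members called there, and later tests on the same arrays are no independent evidence. The tissue was the optic fissure, the ventral groove of the embryonic eye cup that closes as its edges meet, which was isolated by laser microdissection of frozen mouse embryo sections, all wild type and of strain C57BL/6 (C57BL6/J in the collection protocol). There were 3 arrays at embryonic day 10.5, 3 at 11.5 and 2 at 12.5, called here E10.5, E11.5 and E12.5 with a letter for each array, and the embryos of all stages were untreated. Each array held RNA pooled from 3 embryos, which 1 label places in the same litter and the extraction protocol in separate litters. Arrays of the same stage are biological replicates per the labels, and p-values measure the spread between these pools.

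Small leucine-rich proteoglycans are secreted proteins with a curved core of leucine-rich repeats, and most carry chains of sulfated sugars. They bind collagen and set the spacing and thickness of collagen fibrils, and several also hold growth factors of the TGF-beta and BMP families in the matrix. In the eye they are best known from cornea and sclera, tissues that arise from the periocular mesenchyme of neural crest origin, where lumican and keratocan carry the keratan sulfate needed for a clear cornea. The family falls into classes: Dcn (decorin), Bgn (biglycan) and Aspn (asporin) form class I, Fmod (fibromodulin), Lum (lumican), Kera (keratocan) and Omd (osteomodulin) belong to class II, and Ogn (osteoglycin, or mimecan) belongs to class III.

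Several of these genes are neighbours in the genome. In the RefSeq gene table of GRCm38.p6, Aspn, Omd and Ogn follow each other on chromosome 13 with no other coding gene between them, and Dcn, Lum and Kera do so on chromosome 10. Fmod lies on chromosome 1 and Bgn on the X chromosome. RefSeq promoters of GRCm38.p6 were at hand for 6 of the 8 genes. The 250 bases before the gene start are shown for the chromosome 13 neighbours, because on these arrays Ogn reached high signals while Omd and Aspn stayed near the lower end of the range. They lie on the plus strand at chr13:49607765-49608014 for Ogn, chr13:49582212-49582461 for Omd and chr13:49544193-49544442 for Aspn, and capitals mark matches to the motifs described after them.
Ogn promoter: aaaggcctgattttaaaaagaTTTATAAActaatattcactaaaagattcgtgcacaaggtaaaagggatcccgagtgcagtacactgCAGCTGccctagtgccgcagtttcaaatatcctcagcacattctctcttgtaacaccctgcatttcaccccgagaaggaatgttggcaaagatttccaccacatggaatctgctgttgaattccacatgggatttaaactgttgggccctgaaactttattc
Omd promoter: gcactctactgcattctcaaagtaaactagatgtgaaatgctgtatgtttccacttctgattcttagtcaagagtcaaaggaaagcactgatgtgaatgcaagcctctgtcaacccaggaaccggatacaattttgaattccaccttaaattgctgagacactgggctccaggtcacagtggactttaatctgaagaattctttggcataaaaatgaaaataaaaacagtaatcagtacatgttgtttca
Aspn promoter: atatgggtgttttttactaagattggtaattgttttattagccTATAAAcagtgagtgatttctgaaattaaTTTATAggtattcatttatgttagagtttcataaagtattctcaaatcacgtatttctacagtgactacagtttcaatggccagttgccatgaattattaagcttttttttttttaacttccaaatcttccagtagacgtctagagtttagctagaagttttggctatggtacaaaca
The motifs searched, on both strands, were TATAAA, the TATA box, TGANTCA, the AP-1 site, and CAGCTG, an E-box. The last 2 are their own reverse complements, so a match counts for both strands. The Ogn window held TATAAA on both strands in overlapping positions, at -229 and -227 from the gene start, and CAGCTG at -162. The Aspn window held TATAAA at -207 and, on the minus strand, at -178, and the Omd window held no match. Of 32851 promoter windows of this length, 12.4% held TATAAA, 6.75% TGANTCA and 13.0% CAGCTG. These matches describe letters only.

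Signals are log2 values as deposited, and probe sets in the lowest 40% by mean signal, below 3.94, were left out of the main tests, which kept 27022. Array medians lay between 4.37 and 4.48, while the 99th percentile was lower on the E11.5 arrays (11.2 to 12.4) than on the E10.5 arrays (12.5 to 12.9). The 3 prime minus 5 prime log2 signal of Gapdh, a measure of how complete the amplified RNA was, was 4.19 to 4.71 at E10.5, 3.35 to 4.63 at E11.5 and 4.78 to 5.17 at E12.5. Both E12.5 arrays thus lay above every earlier array for Gapdh, while for Actb they overlapped the E10.5 arrays, and the part of this measure in the stage differences was not tested. Markers of the labelled tissue were present: Pax6, Six3, Six6 and Lhx2, homeodomain factors of the optic cup, read at least 8.97 on every array, Vax1, a ventral factor, read 7.60 to 9.01, and Vax2 8.25 to 10.1. Their levels shifted between stages: the summed linear signal of the 8 measured genes of the list was 9006 to 10929 at E10.5, 4256 to 8668 at E11.5 and 12320 to 13701 at E12.5, with no overlap. Pax6 was higher by 1.60 (SE 0.52, limma adjusted p = 0.105) at E12.5 than at E10.5, and Vax1 differed by -1.11 (SE 0.23, limma adjusted p = 0.109) at E11.5 from E10.5. Of the 8 genes 0 passed in limma in any comparison, against 3 at an unadjusted p below 0.05 between E12.5 and E10.5, and the part of this shift in the differences of the proteoglycans was not tested. On the first 2 principal components E10.5 C and E11.5 A stood apart within their stages, and the counts of called members without both are given with the other settings in the closing section.

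Of the 18 member probe sets 6 passed the filter, those of Ogn, Dcn and Lum with 1 each and Bgn with 3, and the other 12 did not. Ogn and Lum averaged below 3.94 at E10.5 and passed through the later stages, so the share of kept probe sets that differ says nothing about the family. The kept one with the lowest mean, Lum, averaged 4.08 over the 8 arrays, and the highest one left out, a second Ogn probe set, averaged 3.93. Fmod, Aspn, Omd and Kera had no kept probe set.

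**Figure D1:**
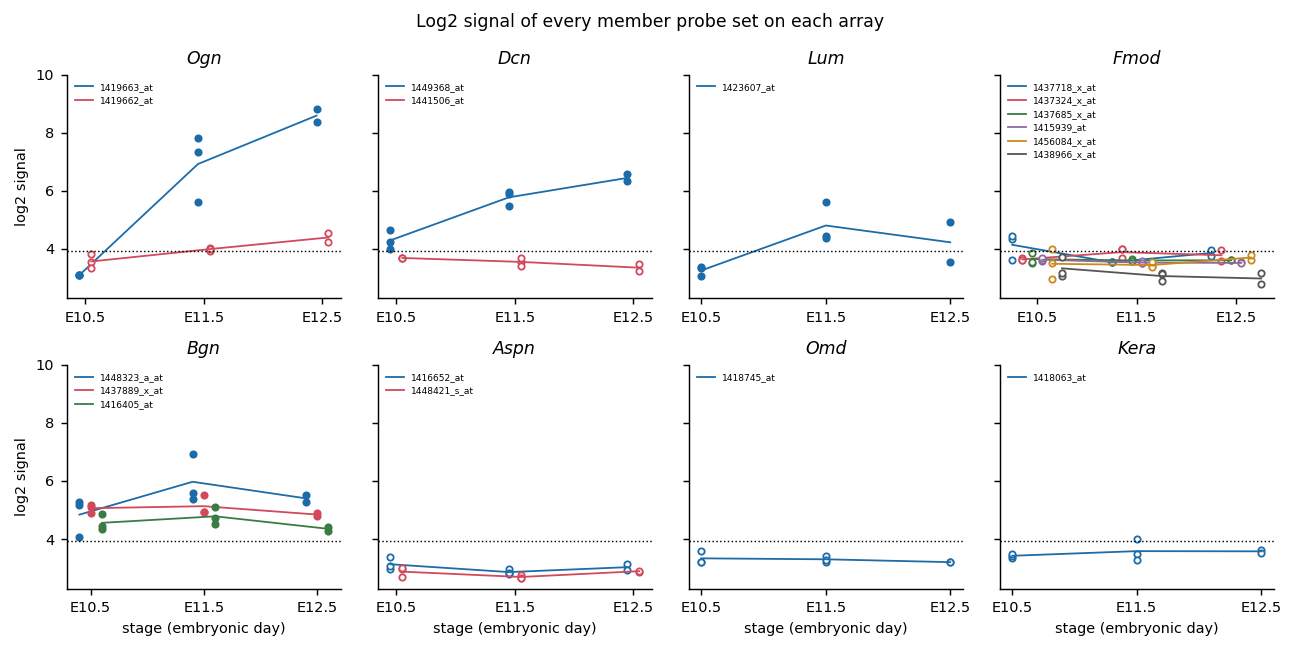
Log2 signal (vertical axis) of every probe set of the 8 genes by stage (horizontal axis). Each point is 1 array, lines join stage means, colours are probe sets, filled points passed the filter and open points did not, and the dotted line is the filter at 3.94. Ogn climbs on its probe set 1419663_at to 8.36 and 8.81 at E12.5, Dcn on 1449368_at to 6.32 and 6.57, while Fmod, Aspn, Omd and Kera stay near or below the dotted line at all 3 stages.

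Ogn and Dcn were the members with higher signals at E12.5 than at E10.5, by 5.48 and 2.15 on the log2 scale on 1 probe set each, and their arrays did not overlap between any of the stages. Ogn lay below the filter at E10.5, where a signal may hold little but background, so the size of its difference depends on how low signals are treated: with 64 added on the linear scale it was 2.63. Lum had a higher mean at E12.5 than at E10.5 that did not pass the test, Bgn did not pass on any probe set, and the remaining 4 genes had low signals throughout. With captured tissue, fewer cells of a type and less RNA per cell cannot be told apart.

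Ogn, a class III member that binds collagen and regulates fibril growth, read 3.10, 3.09 and 3.11 on the E10.5 arrays, 5.63, 7.32 and 7.81 on E11.5 A, B and C, and 8.81 and 8.36 on E12.5 A and B (probe set 1419663_at). The E10.5 arrays were all low, with an SD of 0.01, and every later stage lay wholly above the stage before. E11.5 A was the lowest of its stage by a wide gap. At E11.5 the mean of 6.92 ± 1.14 (SD, n = 3) exceeded the E10.5 mean of 3.10 by 3.82 on the log2 scale (SE 0.43). At E12.5 the mean was 8.59 ± 0.32 (SD, n = 2), above E10.5 by 5.48 (SE 0.49, limma adjusted p = 0.000103), the 10th largest of 27022 differences in that direction. Against E11.5 the E12.5 mean was higher by 1.67 (SE 0.49), with limma adjusted p = 0.122, so the second step did not pass although both E12.5 arrays lay above all 3 E11.5 arrays. Without E11.5 C, the highest E11.5 array, that difference was 2.11 and passed (limma adjusted p = 0.0367). Without E11.5 A it was 1.02 and did not pass (limma adjusted p = 0.171). It was 1.44 without E12.5 A and 1.89 without E12.5 B.

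The second Ogn probe set, 1419662_at, gave the same order of stages at far lower signals. It read 3.81, 3.56 and 3.34 at E10.5, 3.94, 4.03 and 4.01 at E11.5, and 4.54 and 4.25 at E12.5. The stages again did not overlap, but the difference of E12.5 from E10.5 was 0.83 (SE 0.18) against 5.48 on the first probe set. This probe set was below the filter, and without any filter limma gave adjusted p = 0.0338. The probe sets of Ogn thus share direction and not size.

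Dcn, decorin, the class I member that binds collagen fibrils and TGF-beta, read 4.22, 4.66 and 4.001 at E10.5, 5.48, 5.88 and 5.97 at E11.5, and 6.57 and 6.32 at E12.5 (probe set 1449368_at). Each stage lay wholly above the one before, and the spread within a stage was small, with SDs of 0.34, 0.26 and 0.18. The E11.5 mean of 5.78 exceeded the E10.5 mean of 4.30 by 1.48 (SE 0.23). The E12.5 mean of 6.44 was above E10.5 by 2.15 (SE 0.26, limma adjusted p = 0.000783), and ranked 233 among 27022 differences in that direction. Against E11.5 it was higher by 0.67 (SE 0.26, limma adjusted p = 0.223). Of the log2 distance between the E10.5 and E12.5 means, 69.6% for Ogn and 68.9% for Dcn lay between E10.5 and E11.5. These shares use signals known when the family was proposed and depend on how low signals are treated. With 64 added on the linear scale, the first step was 1.42 of 2.63 for Ogn and 0.51 of 0.85 for Dcn.

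The other Dcn probe set, 1441506_at, did not share this pattern. It read 3.68, 3.70 and 3.69 at E10.5, 3.54, 3.70 and 3.42 at E11.5, and 3.23 and 3.48 at E12.5, all below the filter. Its difference of E12.5 from E10.5 was -0.34 (SE 0.14, limma adjusted p = 0.249 without a filter), of opposite sign to 1449368_at.

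Lum, lumican, the class II keratan sulfate proteoglycan of cornea, read 3.35, 3.37 and 3.05 at E10.5, 4.45, 4.37 and 5.60 at E11.5, and 4.92 and 3.54 at E12.5 on its 1 probe set. All later arrays lay above all E10.5 arrays, while E11.5 and E12.5 overlapped. The E11.5 mean exceeded that of E10.5 by 1.55 (SE 0.36). The E12.5 arrays differed widely, and their mean of 4.23 ± 0.97 (SD, n = 2) was above E10.5 by 0.97 (SE 0.40, limma adjusted p = 0.186, 95% interval 0.09 to 1.85). That difference was 0.28 without E12.5 A and 1.66 without E12.5 B. E12.5 minus E11.5 was -0.58 (SE 0.40, limma adjusted p = 0.501), and it turned to 0.11 without E12.5 B.

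Bgn, biglycan, the class I member closest to decorin and abundant in bone, was measured on 3 kept probe sets, whose differences had both signs. On 1448323_a_at it read 4.07, 5.29 and 5.17 at E10.5, 6.95, 5.40 and 5.58 at E11.5, and 5.27 and 5.53 at E12.5. E11.5 A stood out at 6.95, and E12.5 exceeded E10.5 by 0.56 (SE 0.45, limma adjusted p = 0.499, 95% interval -0.43 to 1.55). On 1437889_x_at and 1416405_at the same differences were -0.22 (SE 0.23, limma adjusted p = 0.611) and -0.21 (SE 0.23, limma adjusted p = 0.631). These intervals ran from -0.72 to 0.28 and from -0.71 to 0.30, so neither reached 1 log2 unit in either direction.

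Fmod, Aspn, Omd and Kera were represented by 10 probe sets, all below the filter by their mean. Fmod, fibromodulin, a class II member of tendon and other dense tissue, had 6 probe sets, whose single arrays read 2.81 to 4.46. The highest of these readings, 4.46 and 4.34, came from E10.5 C and E10.5 A on 1437718_x_at, a probe set whose suffix marks probes that may match other transcripts. Aspn, asporin, the class I member with a run of aspartate residues, read 2.66 to 3.37 over its 2 probe sets and all arrays. Omd, osteomodulin of bone matrix, read 3.20 to 3.59, and Kera, keratocan of corneal stroma, read 3.28 to 3.996. The largest difference of the 10 between E12.5 and E10.5 was 0.35 in size, and without a filter limma adjusted p-values of this comparison ran no lower than 0.357. Between E11.5 and E10.5 the largest was -0.60 (SE 0.20 without a filter), for Fmod on 1437718_x_at, where every E11.5 array lay below every E10.5 array. At signals this low a real difference of small size would not be detectable.

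**Figure D2:**
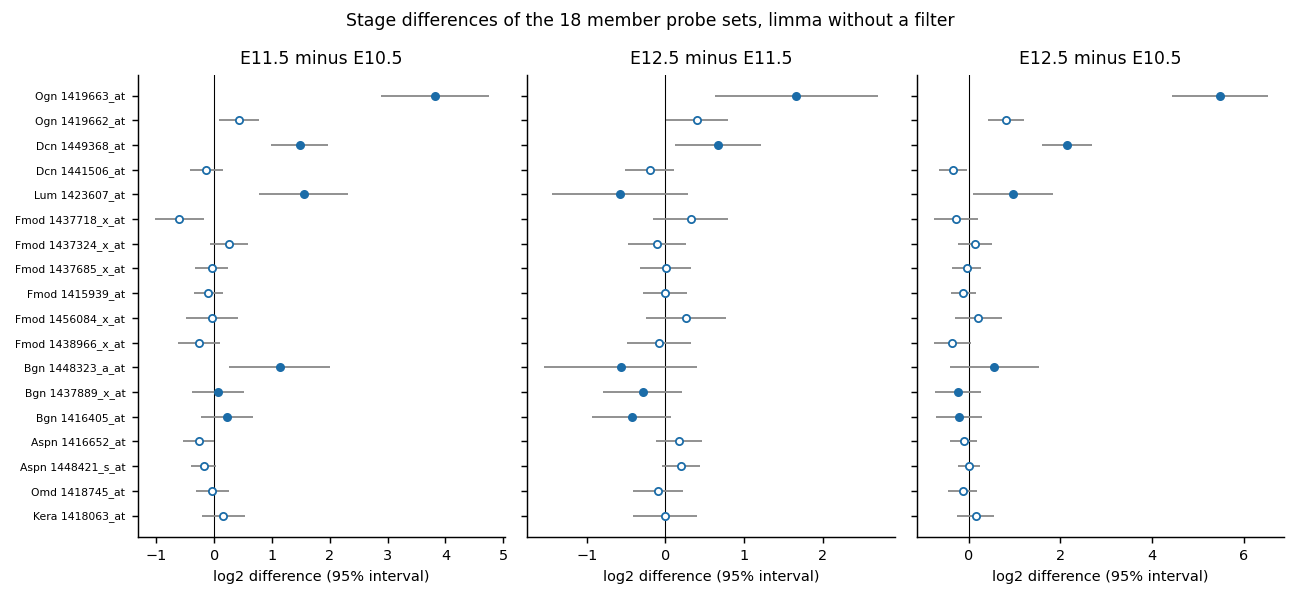
Log2 differences (horizontal axis) of the 18 member probe sets in 3 stage comparisons, with 95% intervals from limma without a filter, filled points for probe sets that passed the filter in the main fit. In E12.5 minus E10.5, Ogn 1419663_at stands at 5.48 and Dcn 1449368_at at 2.15, and the points of Fmod, Aspn, Omd and Kera lie within 0.35 of zero.

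In counts, 2 of the 6 kept member probe sets passed between E12.5 and E10.5, both higher, where 4.64% of all 27022 probe sets passed in either direction and 3.08% were higher. They were those of Ogn and Dcn, whose E10.5 signals were known when the family was proposed, and Ogn passed the filter through its later stages. Nothing about the family is therefore read from counts of E12.5 against E10.5. Between E12.5 and E11.5, 0 of 6 passed in limma (2 at an unadjusted p below 0.05, those of Ogn and Dcn), against 1.82% of all probe sets adjusted and 16.7% unadjusted. Between E11.5 and E10.5, the count was 2 of 6 and the background 0.126%. The 2 were Ogn and Dcn, whose signals at these stages were known when the family was proposed, so nothing is read from this count, which was 0 without E11.5 B. Over all 18 probe sets, kept or not, every E12.5 array lay above every E10.5 array for 5 and below for 3, while the same held for 14.4% and 24.8% of all probe sets that are not controls. The 5 were both of Ogn, the kept one of Dcn, and those of Lum and Kera. Between E12.5 and E11.5, 6 lay wholly above and 2 wholly below, against 21.0% and 16.9% of all. Between E11.5 and E10.5, the counts were 6 and 2 and the shares of all 4.11% and 14.9%, from which nothing is read either. Relative to the array as a whole, the median difference of the tested probe sets was -0.18 for E11.5 minus E10.5 and 0.10 for E12.5 minus E11.5, and quantile normalization brought these to -0.02 and -0.04. The kept probe sets of Ogn and Dcn had a positive difference in each comparison in all 17 alternative settings. The calls of Ogn and Dcn between E12.5 and E10.5 held in all 17 alternative settings, at limma adjusted p up to 0.00154 and 0.00857, but adding 64 on the linear scale lowered the differences to 2.63 and 0.85.

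Of the neighbours on chromosome 13, Ogn alone had a probe set above the filter. Omd and Aspn read below it on every array, so their log2 differences of E12.5 from E10.5, -0.13 for Omd and -0.10 and 0.02 for Aspn, show no more than that both stayed low. Ecm2, which encodes a related matrix protein and lies next to Aspn, read 2.66 to 3.53 over 2 probe sets. On chromosome 10, Dcn was 4.43-fold higher, Lum 1.96-fold higher without passing, and Kera, whose mean was below the filter, differed by 0.15 on the log2 scale. Epyc, epiphycan, the class III gene beyond Kera, read at most 3.08 on any array.

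None of the other measured family genes passed the test. Of 10 other genes, 8 had a probe set and 5 passed the filter, and 0 of the 5 passed the test in any comparison in limma, also 0 at an unadjusted p below 0.05. Podn, podocan, read 6.46 to 7.10 on all arrays. Optc, opticin, a class III protein that the ciliary epithelium secretes into the vitreous, showed the largest difference of E12.5 from E10.5 among the 5, -0.38 (SE 0.21, limma adjusted p = 0.307), and Nyx, nyctalopin of retinal bipolar cells, -0.25 (SE 0.21, limma adjusted p = 0.516). The median of the 5 was -0.25, against -0.10 for all 13050 genes.

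Among collagens and other fibre proteins of the matrix, 1 gene passed between E12.5 and E10.5. Of 18 measured genes 1 rose, 0 fell and 17 did not pass, and the median difference was 0.07. Col5a2, a chain of the type V collagen that starts fibrils, rose to a log2 signal of 7.61 ± 0.09 (SD, n = 2) at E12.5, against 6.42 ± 0.26 (SD, n = 3) at E10.5, higher by 1.19 (SE 0.26, limma adjusted p = 0.0271). The call of Col5a2 was lost in 5 of 17 settings, among them without E10.5 A, E11.5 B, E12.5 A or E12.5 B. Between E11.5 and E10.5 the called gene of this list was Postn, periostin, a matrix protein of mesenchyme, named after its values were seen. Its difference was 3.15 (SE 0.51, limma adjusted p = 0.0401), and the call was lost in 9 of 17 alternative settings, among them without any 1 of the E10.5 arrays, E11.5 B or E11.5 C. It read 5.62, 5.39 and 4.57 at E10.5, 7.29, 8.58 and 9.18 at E11.5, and 7.56 and 5.89 at E12.5. As for Lum, all later arrays lay above all E10.5 arrays, E12.5 B was the lower E12.5 array and E11.5 C the highest array.

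Enzymes that build the sugar chains gave 0 higher, 2 lower and 20 not passing among 22 measured genes between E12.5 and E10.5, with a median of -0.11. Both were sulfotransferases that act on chondroitin sulfate. Chst11 fell by 1.62 (SE 0.27, limma adjusted p = 0.00645) and Chst7 fell by 1.59 (SE 0.25, limma adjusted p = 0.00473), and both calls were lost without E12.5 B and in no other setting. For each, every E11.5 array lay below every E10.5 array and every E12.5 array below every E11.5 array, the reverse of the order seen for Ogn and Dcn.

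Among ligands and receptors of the family, 1 of 14 measured genes rose and 1 fell between E12.5 and E10.5, with 12 not passing and a median of 0.41. Bmp2, a BMP ligand, rose by 1.68 (SE 0.28, limma adjusted p = 0.00732), a call lost without E12.5 A alone. Bmp4, the related ligand of the dorsal optic cup, fell by 0.91 (SE 0.22, limma adjusted p = 0.0375), from signals near the filter, and its call was lost in 9 of 16 settings, among them without any 1 of the E11.5 or E12.5 arrays. Of 8 proteases and their enhancers that process matrix proteins, Pcolce2, an enhancer of procollagen C-proteinase, fell by 1.13 (SE 0.27, limma adjusted p = 0.0358), 0 rose and 7 did not pass. The call of Pcolce2 was lost in 7 of 16 settings, among them without E11.5 B, E11.5 C, E12.5 A or E12.5 B. Between E11.5 and E10.5 the called gene of that list was its relative Pcolce, 5.67-fold higher (log2 SE 0.40, limma adjusted p = 0.0401), named after its values were seen and called in 5 of 17 alternative settings. Leaving out E11.5 C was the 1 removal of a single array that kept it. Over the 5 lists together, which held 67 measured genes, 6 passed between E12.5 and E10.5, 2 between E11.5 and E10.5 and 0 between E12.5 and E11.5 (16 at an unadjusted p below 0.05 in limma). The 6 became 1 without E12.5 B, 3 without E12.5 A and 3 without E11.5 B, the 2 became 0 without E10.5 B, E10.5 C or E11.5 B, and the 0 became 4 without E10.5 C or E11.5 C.

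Markers of the cell types that captured tissue could hold were read beside these changes. Of the 13 listed genes of periocular mesenchyme with a probe set, 8 passed the filter, and between E12.5 and E10.5 Tfap2b, a neural crest factor, rose by 1.41 (SE 0.34, limma adjusted p = 0.0388), Foxd1 fell by 2.36 (SE 0.45, limma adjusted p = 0.0138) and 6 did not pass. Without E12.5 B neither call held. That of Tfap2b was lost in 7 of 16 settings, among them also without E10.5 A, E10.5 B or E11.5 B. Twist1, Osr2, Eya2, Alx1 and Alx4 were below the filter. The summed linear signal of the 13 was 1586 to 3761 at E10.5, 1328 to 1928 at E11.5 and 620 to 921 at E12.5. Foxd1, which the retina also expresses, made up 43.5% to 93.4% of that sum. The sum of the other 12 was 248 to 293 at E10.5, 392 to 565 at E11.5 and 350 to 405 at E12.5, above every E10.5 array at both later stages. This sum was formed after the values were seen. Its genes differed in both directions at E12.5 from E10.5, from -0.36 for Foxc2 to 1.69 for Prrx1. The 8 arrays stood in the same order by the sum without Foxd1 as by the log2 signal of Lum. E11.5 C was highest and E12.5 B the lowest of the later arrays. This match, too, was noticed after the values were seen. By the sum of all 13 the order differed, with E10.5 C highest at 3761 and E12.5 B lowest at 620. Pdgfra, a receptor of mesenchyme in that list, singled out after its values were seen, read 5.17, 5.36 and 4.402 at E10.5, 5.73, 5.95 and 6.53 at E11.5, and 6.18 and 5.79 at E12.5. The part of these cells in the signals of Ogn, Dcn and Lum was not tested.

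Among the other lists, the sums of smooth muscle, surface ectoderm, lens and pigment epithelium genes had their highest stage mean at E11.5. The smooth muscle and pericyte genes summed to 175 to 213 at E10.5, 236 to 279 at E11.5 and 167 to 184 at E12.5, with 0 of 6 called between E12.5 and E10.5 (2 at an unadjusted p below 0.05 in limma). Surface ectoderm genes summed to 319 to 391, 700 to 956 and 457 to 514 at the 3 stages, with 0 of 5 called between E12.5 and E10.5 (0 unadjusted). Between E11.5 and E10.5, 0 genes of these 2 lists were called. There 3 of the 6 smooth muscle and pericyte genes and 2 of the 5 surface ectoderm genes had an unadjusted p below 0.05 in limma. Lens genes summed to 168 to 204, 481 to 593 and 406 to 503. Cryab, a small heat shock protein also found outside lens, was the 1 called of 5 between E12.5 and E10.5, higher by 4.10 (SE 0.40, limma adjusted p = 0.000213). Cryab read 3.71 to 4.67 at E10.5 and 7.94 to 8.43 at E12.5, so much of the lens sum at E12.5 came from this gene. A lens sum without Cryab was not formed. Of the 10 measured pigment epithelium genes 5 rose and Trpm1 fell, the list's sum overlapped between all stages (2540 to 7663 at E10.5, 3882 to 9601 at E11.5, 3865 to 6247 at E12.5), and the median difference of E12.5 from E10.5 was 1.60. Tyr, tyrosinase, the first enzyme of melanin synthesis, read 4.25, 3.09 and 3.96 at E10.5, 7.57, 8.81 and 9.28 at E11.5, and 9.67 and 9.10 at E12.5. The part of pigment cells and lens in the signals of Ogn and Dcn was not tested. Of the 6 calls in the pigment list, those of Tyr and Gpr143 held in all 17 settings, and those of Tyrp1, Mlana, Oca2 and Trpm1 were lost without E12.5 B. In all, the call was lost in 4 of 17 settings for Tyrp1, 3 of 16 for Mlana and 2 of 17 for Oca2 and for Trpm1. Cartilage and bone genes had 0 of 5 called between E12.5 and E10.5 (2 unadjusted) and sums that overlapped at all stages. The 2 were Col2a1, lower at E12.5 by 0.89, and Acan, lower by 0.45. They read at most 5.87 and 4.37, so the list's sums of 3469 to 10759 were carried by brighter genes and say little about these 2. Of 7 red cell genes Hbb-bh1, an embryonic globin, fell by 3.12 (SE 0.48, limma adjusted p = 0.00424), a call lost without E12.5 B. Endothelial genes summed to 303 to 372 at E10.5, 316 to 343 at E11.5 and 400 to 412 at E12.5, so that both E12.5 arrays lay above every earlier array, with 0 of 6 called between E12.5 and E10.5 (1 at an unadjusted p below 0.05 in limma). Macrophage genes summed to 519 to 1402, 762 to 859 and 1066 to 1513 at the 3 stages, above every E11.5 array at E12.5 and overlapping with E10.5, with 0 of 7 called (3 unadjusted). The part of endothelium and macrophages in the signals of Ogn and Dcn was not tested.

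**Figure D3:**
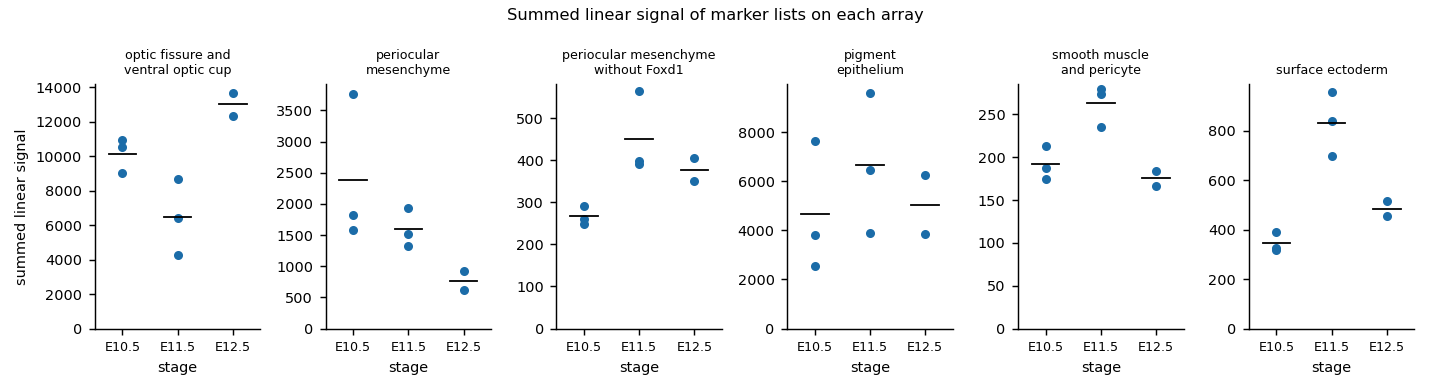
Summed linear signal (vertical axes, each from 0) of marker lists by stage (horizontal axes). Each point is 1 array and each short line a stage mean. The full periocular mesenchyme sum is lower on both E12.5 arrays (620 to 921) than on every E10.5 array (1586 to 3761). Without Foxd1, left out after the values were seen, it runs from 248 to 293 at E10.5 and from 350 upward at both later stages. The pigment epithelium sum overlaps between all stages.

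Genes with profiles most like Ogn over the 8 arrays were ranked by the root-mean-square difference of log2 signals after each profile was centred on its own mean, among 13049 other genes. The nearest was Col8a1, a short-chain collagen of basement membranes, with a difference of 0.54. It was followed by Tyr at 0.55, Cryab at 0.72, Efemp1, a fibulin of elastic matrix, at 1.01, and Cacna1d, a calcium channel subunit, at 1.10. Like Ogn, all 5 read lowest on E11.5 A among the E11.5 arrays. That array also had the lowest 99th percentile of all 8 arrays, 11.2. Dcn ranked 41 in likeness to Ogn, Lum 311 and Bgn 3121, with differences of 1.46, 1.84 and 2.21.

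The genes most like Dcn were Tmem255a, a membrane protein, Kcnq5, a potassium channel subunit, and Clu, the secreted chaperone clusterin, each at 0.25, then Mpeg1, a pore-forming protein of macrophages, and Bmp2, both at 0.31. Lum ranked 867 in likeness to Dcn. Because the measure keeps the size of a change, genes of larger range such as Ogn rank low for Dcn, and the ranking describes these 8 arrays only.

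**Figure D4:**
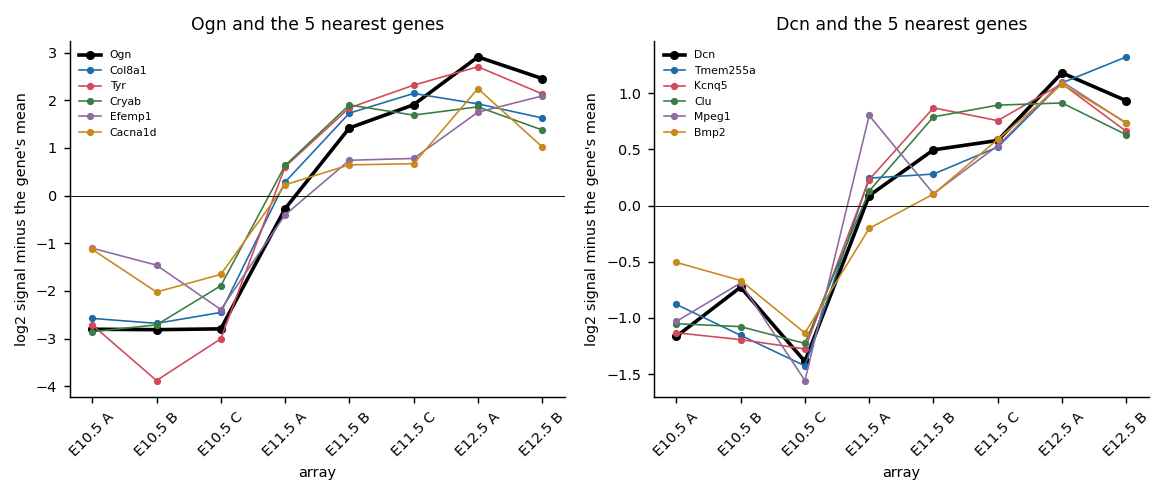
Log2 signal minus each gene's own mean (vertical axis) on the 8 arrays (horizontal axis) for Ogn and Dcn, in black, and the 5 genes nearest to each, in colour; lines join arrays for reading only. Every profile lies below 0 on all E10.5 arrays and above 0 on both E12.5 arrays, and for Ogn E11.5 A lies below E11.5 B and C.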

How the data were processed

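Expression was measured on Affymetrix-type arrays of biotin-labelled RNA, amplified linearly over repeated in vitro transcription, per the labels' protocols. Values deposited by the authors are on a log2 scale, with every probe set listed for each array. The submitters' processing notes name GCOS 1.4 with no role. Methods of summarization, background correction and normalization were not given in the sources used here.

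Left out were the 64 control probe sets and the lowest 40% by mean signal. One linear model of stage over all 8 arrays (5 residual degrees of freedom) was made in limma 3.58.1 (R 4.3.3) from the log2 values unchanged, using a trend on mean signal. Benjamini-Hochberg adjustment ran over all 27022 tested probe sets, at a threshold of 0.05. The fit was tested on simulated data. Symbols came from the platform annotation, in which 34958 probe sets had 1 symbol, 932 several and 9211 none. Each list gene took the brightest of its kept probe sets; sums took the highest of all its probe sets.

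Members and lists were chosen with earlier results of these data known. Named list genes were the called ones of E12.5 minus E10.5, up to 6 by smallest p, otherwise the 2 largest differences, of which those of lists described by counts only are not printed. The 17 alternatives changed normalization, filter, pseudocount, prior, weights, replicate block or the arrays used. The number of arrays limits precision.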

Additional observations from a re-analysis of the deposited data

How the results depend on the processing

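Between E12.5 and E10.5 the count of called member probe sets, from which nothing is read about the family, was 2. It lay between 2 and 3 in all 17 settings, the third being the weaker Ogn probe set when no filter was used. Between E11.5 and E10.5 the count of 2, from which nothing is read, became 0 with a pseudocount of 64, 1 without the trend on mean signal, and ran from 0 to 2 when single arrays were left out. It was 0 without E11.5 B and 1 without E10.5 A, E10.5 C, E11.5 C, E12.5 A or E12.5 B. Between E12.5 and E11.5 the count of 0 became 3 with array weights and ran from 0 to 1 when single arrays were left out, the 1 being Ogn without E11.5 C (difference 2.11, limma adjusted p = 0.0367). Array weights placed nearly all weight on E11.5 B and did not converge. E12.5 minus E11.5 changed sign for Lum without E12.5 B (0.11 against -0.58, with a range of -1.27 to 0.11 when single arrays were left out) and for Bgn 1448323_a_at with array weights (0.0055 against -0.57). Leaving out E10.5 C and E11.5 A together, added after seeing the data, gave counts of 2, 0 and 2 in E11.5 minus E10.5, E12.5 minus E11.5 and E12.5 minus E10.5; the causes of these shifts were not tested.

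For the 67 partner genes, the counts of 2, 0 and 6 in the same order became 15, 34 and 20 with array weights, 0, 0 and 3 with the replicate block, and 2, 1 and 11 without E10.5 C and E11.5 A. The 2 became 1 with quantile normalization or median centring and 0 with a pseudocount of 64 or without the trend. When single arrays were left out, the counts ran from 0 to 1, from 0 to 4 and from 1 to 9. Over all probe sets, the counts of 34, 492 and 1255 became 0, 553 and 1183 with a pseudocount of 64, 6, 369 and 976 without the trend and 5017, 12520 and 3371 with array weights, and without E12.5 B they were 14, 114 and 209.

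The stages share array letters. Deviations of same-lettered arrays from their stage means correlated between -0.39 and 0.13. With 3 or 2 arrays per stage, deviations within a stage depend on each other. These values therefore cannot settle whether the letters pair the arrays. With the letter as a replicate block the counts were 1, 0 and 2 in the same order, and over all probe sets 5, 280 and 531 passed, against 34, 492 and 1255 without it. Quantile normalization moved all calls between E12.5 and E11.5 to 280 higher and 134 lower, against 438 and 54 as deposited, and those between E11.5 and E10.5 to 42 and 4, against 26 and 8. Signals near 3.94 or below limit what can be read for Fmod, Aspn, Omd and Kera.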
